A study of Mus musculus with 8 samples.

Results

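The cell cycle and DNA replication genes described here are 51 mouse genes whose products copy DNA in S phase or separate the chromosomes in mitosis. They were taken from a list of gene names, and a gene counted as measured where at least 1 probe set of the array carried its symbol and no other. By that rule 50 of the 51 were measured, among 19938 named genes in all, and the probe set with the highest mean over the 8 arrays stood for each gene. The set holds 24 replication genes, all measured, and 27 mitosis genes, of which 26 were measured; the cyclin B1 gene Ccnb1 was not analysed here. RNA came from bone marrow derived macrophages (BMDM), which are macrophages grown in culture from mouse marrow, and 1 Affymetrix MoGene 1.0 array was hybridised per sample. Of the 4 groups of 2 arrays, 1 was left untreated and the others were exposed for 6 h to IFN gamma/LPS, to IL4/IL13 or to LPS/IL4/IL13. IFN gamma is interferon gamma, LPS is lipopolysaccharide from bacterial cell walls, and IL4 and IL13 are the type 2 interleukins. The labels give no mouse strain, age, genotype or dose, LPS alone was not analysed here, and whether replicate arrays stem from different animals or cultures is not stated. The p-values therefore reflect only how far replicate arrays differ, which could be technical.

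A cell that enters S phase first loads the MCM helicase onto origins through Cdc6 and Cdt1, then fires it with Cdc45 and the GINS complex and copies DNA from deoxynucleotides that ribonucleotide reductase supplies. E2F transcription factors drive many of these genes late in G1, when cyclin and CDK activity has lifted the repression by RB proteins. Mitosis genes peak later, and the MuvB complex with B-Myb and FoxM1, or in resting cells the DREAM complex, acts on them through promoter elements called CHR and through CCAAT boxes bound by NF-Y. Marrow cells multiply in culture under the growth factor M-CSF, and both interferon gamma and LPS are known to arrest the growth of such cells.

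The labelled cell type was checked against marker genes. All 9 measured macrophage markers lay above the median of named genes in the untreated arrays, with group means from 10.74 to 13.27 on the log2 scale against a median of 6.30. Of these 9, 3 were called higher and 5 lower under IFN gamma/LPS, from -1.09 for the M-CSF receptor gene Csf1r to 1.44 for the Fc receptor gene Fcgr1. Under IL4/IL13 0 were higher and 4 lower, namely Mertk (-1.51), Cd14 (-1.42), Itgam (-0.47) and Fcgr1 (-0.33). Under LPS/IL4/IL13 3 were higher and 5 lower. Shares of all named genes called lower and higher were 28.4% and 23.6% under IFN gamma/LPS. They were 12.3% and 7.83% under IL4/IL13 and 25.4% and 20.3% under LPS/IL4/IL13. The summed log2 signal of the macrophage markers was 107.92 untreated, 107.76 under IFN gamma/LPS, 103.96 under IL4/IL13 and 107.72 under LPS/IL4/IL13. Above the same median lay 2 of 10 markers of progenitors and granulocyte precursors, 0 of 7 lymphocyte markers and 3 of 8 fibroblast markers. The summed signal of the progenitor and granulocyte list was 57.45 untreated, 60.53 under IFN gamma/LPS, 59.13 under IL4/IL13 and 58.43 under LPS/IL4/IL13, and that of the fibroblast list was 48.87, 51.30, 49.66 and 51.69 in the same order. Under IFN gamma/LPS 4 of the 10 progenitor and granulocyte markers were called higher and 1 lower, led by Gfi1 at 1.81. Of the 8 fibroblast markers 2 were called higher and 0 lower under IFN gamma/LPS, and likewise under LPS/IL4/IL13. Dcn led both, at 1.37 and 1.75, while the collagen genes Col1a1 (-0.07 and -0.04) and Col1a2 (-0.02 and 0.11) were not called. The lymphocyte list summed to 32.33, 33.27, 34.00 and 33.44. No detection calls were used here, so no marker can be called absent, and the part of other cell types in the results below was not tested. In RNA from a whole culture, fewer cells in cycle and less of these RNAs per cell cannot be told apart.

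Promoter sequence was set beside the genes first, because the replication and mitosis classes are described as being read through different elements. RefSeq windows of 300 bases, from 250 before to 50 after the start of the first listed transcript (build GRCm38.p6), were found for 21 replication and 21 mitosis genes and for 15614 of the named genes, and both strands were searched. E2F letters (TTTCCCGC, TTTCGCGC, TTTGCCGC or TTTGGCGC) occurred in 42.9% of the replication windows (9), in 4.76% of the mitosis windows (1) and in 3.08% of all windows. CHR letters (TTTGAA or TTCGAA) occurred in 81.0% of the mitosis windows (17), in 4 of the replication windows and in 16.8% of all windows. The NF-Y box, CCAAT, occurred in 66.7% of replication windows (14), 76.2% of mitosis windows (16) and 38.2% of all windows. Both CHR and CCAAT letters were held by 71.4% of mitosis windows (15), against 4 replication windows and 6.84% of all windows. These shares describe letters only: a match is not a bound site, and a window without a match says nothing about a factor.

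**Figure D1:**
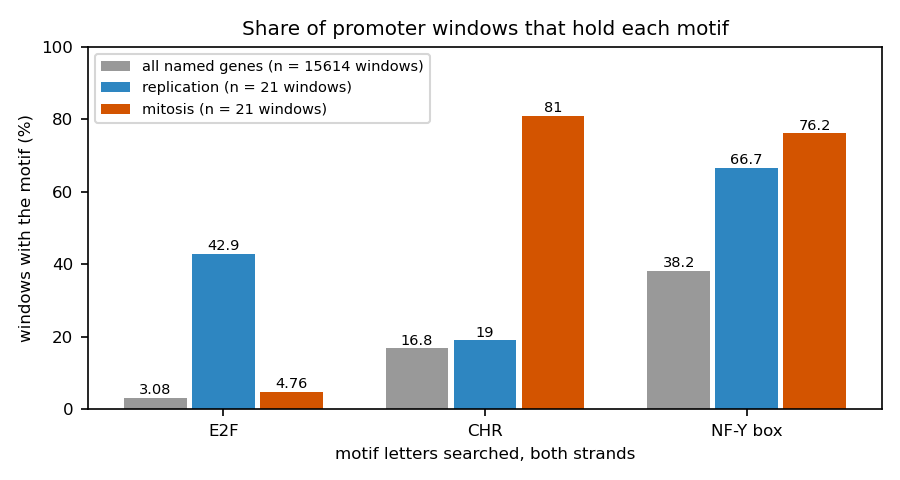
Share of promoter windows of 300 bases (y axis, percent) that hold E2F letters, CHR letters or the NF-Y box (x axis), for all 15614 named genes with a window (grey), 21 replication genes (blue) and 21 mitosis genes (orange). The E2F bar is highest for replication genes, at 42.9%, and the CHR bar for mitosis genes, at 81.0%.

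The 180 bases before the start are printed for genes whose values are given below, 5′ to 3′ on the strand of the gene, in lower case with matched letters in capitals. Among replication genes, the helicase genes Mcm6 (chr1:128359706-128359885, minus strand) and Mcm7 (chr5:138171884-138172063, minus strand), the reductase gene Rrm1 (chr7:102441515-102441694, plus strand) and the factor gene E2f1 (chr2:154569427-154569606, minus strand) are shown. Capitals in Mcm6 mark E2F letters at 110, 106 and 47 bases before the start, of which the first and second overlap, and CCAAT letters at 57 and 14. In Mcm7 they mark CHR letters at 173, E2F letters at 165 and CCAAT letters at 72 and 26 bases before the start; further E2F and CCAAT letters lie after the start, at bases 16 and 23. Rrm1 holds only CCAAT letters, at 91 and 45 bases, and the E2f1 stretch holds none of these letters.
Mcm6: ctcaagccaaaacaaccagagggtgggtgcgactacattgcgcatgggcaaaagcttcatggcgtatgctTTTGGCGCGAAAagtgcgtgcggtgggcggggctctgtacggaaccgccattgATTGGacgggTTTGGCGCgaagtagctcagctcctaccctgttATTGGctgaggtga
Mcm7: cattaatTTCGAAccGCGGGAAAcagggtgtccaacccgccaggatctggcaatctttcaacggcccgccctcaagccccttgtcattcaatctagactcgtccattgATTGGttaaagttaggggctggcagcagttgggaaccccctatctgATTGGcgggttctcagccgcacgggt
Rrm1: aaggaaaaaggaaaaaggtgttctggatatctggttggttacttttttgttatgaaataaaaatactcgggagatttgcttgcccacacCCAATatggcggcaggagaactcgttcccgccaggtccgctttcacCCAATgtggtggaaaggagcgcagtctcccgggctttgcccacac
E2f1: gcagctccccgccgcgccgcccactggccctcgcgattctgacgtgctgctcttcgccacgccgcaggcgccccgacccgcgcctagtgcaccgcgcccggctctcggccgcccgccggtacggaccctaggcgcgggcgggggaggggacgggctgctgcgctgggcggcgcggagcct

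Among mitosis genes, the kinase genes Cdk1 (chr10:69352913-69353092, minus strand) and Plk1 (chr7:122159255-122159434, plus strand), the motor genes Kif11 (chr19:37376202-37376381, plus strand) and Kif23 (chr9:61946800-61946979, minus strand) and the cytokinesis gene Anln (chr9:22389207-22389386, minus strand) are shown. Cdk1 holds CHR letters at 71 and 15 bases, CCAAT letters at 80 and 48 bases and the only E2F match among the mitosis windows, at 131 bases before the start. A further CCAAT match of Cdk1 lies outside the stretch shown, at 208 bases before the start. Kif11 holds CHR letters at 19 and CCAAT letters at 45 bases. Plk1 and Kif23 hold CCAAT letters at 14 and 7 bases in the stretch shown, and their CHR letters lie after the start, at bases 30 and 2. The Anln stretch holds none, and its CHR letters also lie after the start, at bases 21 and 28. Mcm6, Cdk1 and Kif11 were picked after the search for the letters they hold.
Cdk1: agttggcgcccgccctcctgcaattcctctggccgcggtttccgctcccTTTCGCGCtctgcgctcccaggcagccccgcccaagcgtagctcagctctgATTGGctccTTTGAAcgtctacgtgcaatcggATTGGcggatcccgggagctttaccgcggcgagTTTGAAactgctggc
Plk1: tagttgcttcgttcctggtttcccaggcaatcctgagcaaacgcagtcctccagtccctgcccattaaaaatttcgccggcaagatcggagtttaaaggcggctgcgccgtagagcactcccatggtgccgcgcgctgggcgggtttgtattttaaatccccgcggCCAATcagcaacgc
Kif11: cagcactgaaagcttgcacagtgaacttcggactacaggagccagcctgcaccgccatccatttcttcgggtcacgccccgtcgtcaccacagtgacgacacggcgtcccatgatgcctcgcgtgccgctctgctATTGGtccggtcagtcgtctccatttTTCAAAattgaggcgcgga
Kif23: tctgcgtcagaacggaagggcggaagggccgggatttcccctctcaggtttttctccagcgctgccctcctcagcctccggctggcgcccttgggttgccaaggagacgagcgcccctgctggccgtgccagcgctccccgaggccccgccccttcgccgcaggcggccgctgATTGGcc
Anln: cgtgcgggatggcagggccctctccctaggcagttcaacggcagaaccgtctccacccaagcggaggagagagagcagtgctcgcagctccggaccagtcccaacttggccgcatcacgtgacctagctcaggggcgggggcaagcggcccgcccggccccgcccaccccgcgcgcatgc

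Under IFN gamma/LPS most of the measured genes fell, and the median fall was larger among mitosis genes than among replication genes. Of the 50 genes 42 were called lower and 4 higher than untreated at a limma adjusted p under 0.05, while 28.4% of all named genes were called lower and 23.6% higher. Replication genes had 18 of 24 lower and 3 higher, with a median log2 fold change of -0.89, and mitosis genes had 24 of 26 lower and 1 higher, with a median of -1.73. The median over all named genes was 0.11. Over all named genes 51.9% were called in either direction, 11.2% lower by at least 2-fold and 5.86% higher by at least 2-fold. A fall of at least 2-fold was reached by 11 replication and 18 mitosis genes, 29 in all. Bright probe sets fell more often in general: of named genes above the median signal, where 35 of the 50 lie, 48.9% were called lower. The classes differed in signal: above 5.91, the 40th percentile of named genes, lay 17 of 24 replication genes and 25 of 26 mitosis genes. A dim gene has less room to fall, and the part of signal level in the gap between the classes was not tested. The gap between the classes was described and not tested. Over genes the quartiles were -1.16 and -0.36 for replication and -2.31 and -0.87 for mitosis genes, so these ranges overlapped. Between the 2 arrays of a group the class median varied by an SD of 0.05 for replication and 0.09 for mitosis genes. That SD does not measure the spread between genes. Quantile normalization moved the medians to -0.63 for replication and -1.52 for mitosis genes.

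**Figure D2:**
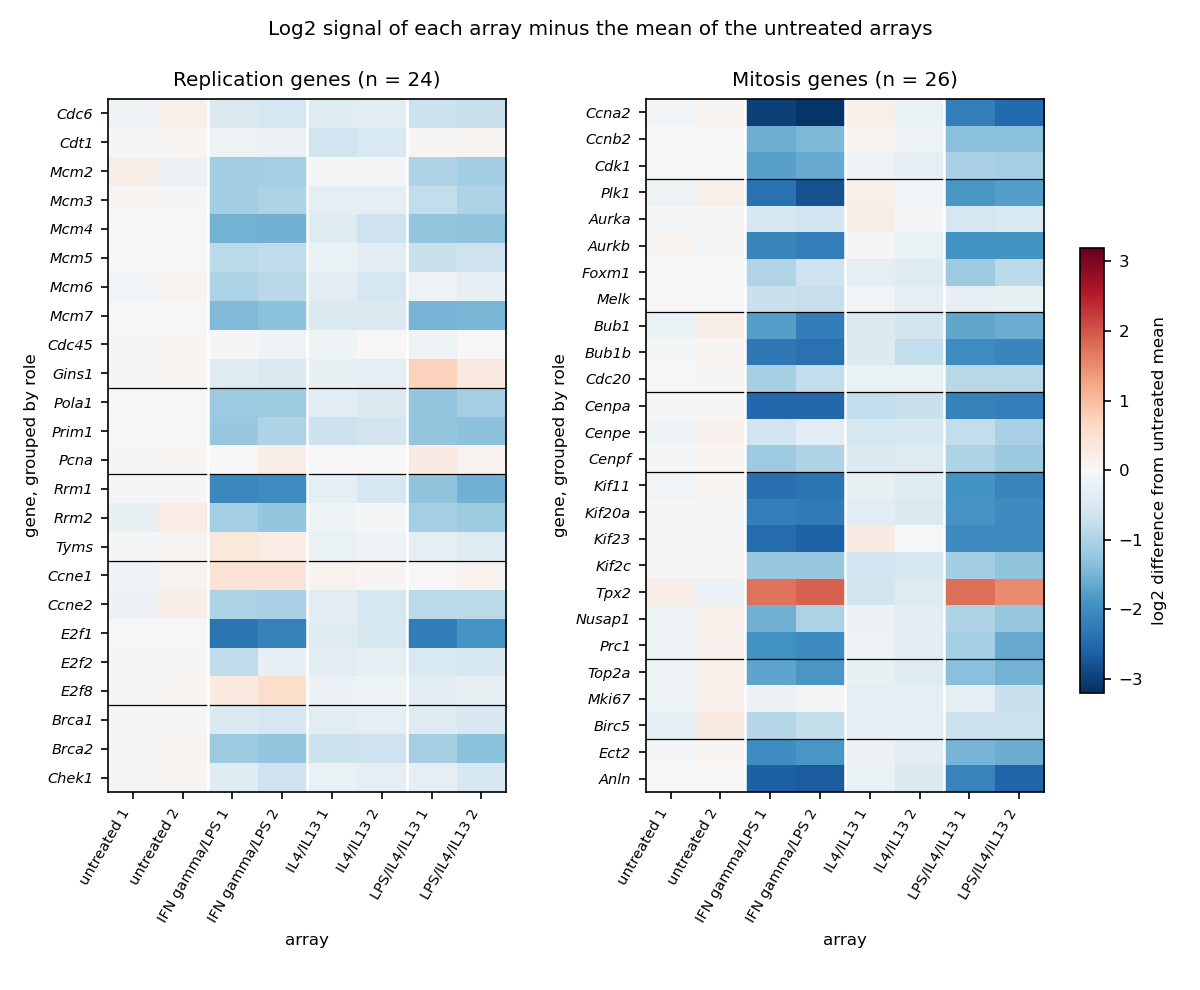
Log2 signal of each array minus the mean of the 2 untreated arrays (colour) for 24 replication genes (left) and 26 mitosis genes (right), with genes in rows by role and the 8 arrays in columns. Blue columns stand out under IFN gamma/LPS and LPS/IL4/IL13, more so on the right, and Tpx2 is red in the same 4 arrays.

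Genes of licensing and the helicase fell in 8 of 10 cases under IFN gamma/LPS, with changes from -1.52 to -0.09. Mcm4, a subunit of the MCM helicase, read 7.98 and 7.94 in the untreated arrays, 6.46 and 6.42 under IFN gamma/LPS, 7.58 and 7.29 under IL4/IL13 and 6.70 and 6.68 under LPS/IL4/IL13. Its IFN gamma/LPS arrays lay below every other array, and the change was -1.52 ± 0.11 (SE, adjusted p = 1.97e-07). Of the other MCM genes, Mcm7 changed by -1.37, Mcm2 by -1.10, Mcm3 by -1.06, Mcm6 by -0.95 and Mcm5 by -0.84. Cdc6, which loads the helicase, changed by -0.52 and the GINS subunit gene Gins1 by -0.43. Both calls were fragile: without untreated replicate 2 the adjusted p was 0.066 for Cdc6, and Gins1 passed in none of the 4 fits that left out 1 array, with adjusted p from 0.0536 to 0.138. Cdc45, the partner of the MCM ring at the fork, read 6.39 and 6.51 in the untreated arrays, 6.40 and 6.32 under IFN gamma/LPS, 6.30 and 6.43 under IL4/IL13 and 6.28 and 6.45 under LPS/IL4/IL13. All 4 groups overlapped for Cdc45, with a change of -0.09 ± 0.11 (SE, adjusted p = 0.513) under IFN gamma/LPS. The loading factor gene Cdt1 was not called either, at -0.18 ± 0.10 (SE, adjusted p = 0.145).

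The polymerase and nucleotide genes split. Pola1, the catalytic subunit of the polymerase alpha complex that starts each strand, read 7.17 and 7.17 in the untreated arrays, 6.00 and 6.04 under IFN gamma/LPS, 6.80 and 6.70 under IL4/IL13 and 5.94 and 6.10 under LPS/IL4/IL13. Both groups with LPS lay below all other arrays, and the change under IFN gamma/LPS was -1.15 ± 0.10 (SE, adjusted p = 1.34e-06). Prim1, the primase that makes the RNA primer, changed by -1.09. Pcna, the sliding clamp, read 11.65 and 11.75 in the untreated arrays, 11.69 and 11.91 under IFN gamma/LPS, 11.72 and 11.71 under IL4/IL13 and 11.96 and 11.81 under LPS/IL4/IL13. Its IFN gamma/LPS and untreated arrays overlapped, and the change of 0.10 ± 0.08 (SE, adjusted p = 0.313) was not called. The LPS/IL4/IL13 arrays lay above the untreated and IL4/IL13 arrays, but the change of 0.19 ± 0.08 (SE, adjusted p = 0.0807) against untreated was not called either. RefSeq lists Pcna pseudogenes. Whether the Pcna probes also bind other transcripts was not tested, so the level of Pcna is uncertain. Rrm1, the large subunit of ribonucleotide reductase, read 8.87 and 8.95 in the untreated arrays, 6.84 and 6.92 under IFN gamma/LPS, 8.62 and 8.37 under IL4/IL13 and 7.63 and 7.37 under LPS/IL4/IL13. The 4 groups of Rrm1 did not overlap, IFN gamma/LPS was lowest, and the change was -2.03 ± 0.12 (SE, adjusted p = 2.32e-08), 4.08-fold. Rrm2, the small subunit, changed by -1.17. Tyms, the thymidylate synthase that supplies dTMP, read 6.91 and 7.06 in the untreated arrays, 7.32 and 7.23 under IFN gamma/LPS, 6.77 and 6.82 under IL4/IL13 and 6.67 and 6.58 under LPS/IL4/IL13. The IFN gamma/LPS arrays of Tyms were the highest of the 8, at 0.29 ± 0.10 (SE, adjusted p = 0.0338), but the call was lost without untreated replicate 1 (adjusted p = 0.232), IFN gamma/LPS replicate 1 (0.158) or IFN gamma/LPS replicate 2 (0.059).

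Factors of the G1/S step moved in both directions. E2f1, the activator E2F whose promoter is shown above, read 9.52 and 9.53 in the untreated arrays, 7.18 and 7.35 under IFN gamma/LPS, 9.14 and 9.01 under IL4/IL13 and 7.32 and 7.63 under LPS/IL4/IL13. Its IFN gamma/LPS and LPS/IL4/IL13 arrays lay about 2 log2 units below the untreated arrays, and the change of -2.26 ± 0.12 (SE, adjusted p = 7.41e-09) was the largest among the replication genes. Ccne2, cyclin E2, changed by -1.03 and the activator gene E2f2 by -0.54, a call lost without untreated replicate 1 (adjusted p = 0.0763) or IFN gamma/LPS replicate 1 (adjusted p = 0.129). In contrast Ccne1, cyclin E1, which acts with Cdk2 at the start of S phase, read 7.02 and 7.26 in the untreated arrays, 7.61 and 7.56 under IFN gamma/LPS, 7.26 and 7.21 under IL4/IL13 and 7.13 and 7.24 under LPS/IL4/IL13. Only the IFN gamma/LPS arrays stood above the rest, with a change of 0.45 ± 0.11 (SE, adjusted p = 0.00445), and without untreated replicate 1 the adjusted p was 0.073. E2f8, an E2F that represses transcription, read 6.81 and 6.93 in the untreated arrays, 7.18 and 7.42 under IFN gamma/LPS, 6.67 and 6.74 under IL4/IL13 and 6.50 and 6.64 under LPS/IL4/IL13. Again the IFN gamma/LPS arrays were highest, at 0.43 ± 0.11 (SE, adjusted p = 0.00766); the adjusted p was 0.0752 without untreated replicate 1 and 0.0812 without IFN gamma/LPS replicate 2.

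All 3 genes of the replication checkpoint and repair fell. Brca2, which acts in the repair of broken DNA, read 6.09 and 6.24 in the untreated arrays, 4.99 and 4.93 under IFN gamma/LPS, 5.47 and 5.51 under IL4/IL13 and 5.11 and 4.85 under LPS/IL4/IL13. The untreated arrays were highest, IL4/IL13 lay between, and the change under IFN gamma/LPS was -1.21 ± 0.12 (SE, adjusted p = 3.5e-06). Brca1, its partner in homologous recombination, read 5.79 and 5.88 in the untreated arrays, 5.38 and 5.30 under IFN gamma/LPS, 5.49 and 5.51 under IL4/IL13 and 5.41 and 5.33 under LPS/IL4/IL13. The untreated arrays of Brca1 were again above all others, with a smaller change of -0.50 ± 0.11 (SE, adjusted p = 0.00196). Chek1, the kinase that responds to stalled forks, changed by -0.53.

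All 3 measured genes of mitotic cyclins and their kinase fell. Ccna2, cyclin A2, which also acts in S phase, read 8.80 and 8.97 in the untreated arrays, 5.90 and 5.74 under IFN gamma/LPS, 9.04 and 8.68 under IL4/IL13 and 6.71 and 6.39 under LPS/IL4/IL13. Untreated and IL4/IL13 arrays overlapped, and IFN gamma/LPS lay 8.37-fold lower, a log2 change of -3.07 ± 0.14 (SE, adjusted p = 3.36e-09) and the largest of the 50 genes. Ccnb2, a partner of Cdk1 in mitosis, read 10.34 and 10.36 in the untreated arrays, 8.78 and 8.91 under IFN gamma/LPS, 10.46 and 10.19 under IL4/IL13 and 9.00 and 9.01 under LPS/IL4/IL13. The arrays of Ccnb2 fell into the same order, with a change of -1.51 ± 0.10 (SE, adjusted p = 5.88e-08). Cdk1, the kinase that drives entry into mitosis, changed by -1.68.

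All 5 genes of mitotic kinases and FoxM1 fell. Plk1, the polo kinase of spindle assembly and mitotic exit, read 8.41 and 8.72 in the untreated arrays, 6.18 and 5.79 under IFN gamma/LPS, 8.74 and 8.47 under IL4/IL13 and 6.70 and 6.80 under LPS/IL4/IL13. The lowest arrays of Plk1 were those with IFN gamma/LPS, at -2.58 ± 0.15 (SE, adjusted p = 2.37e-08). Aurka, the Aurora kinase of the spindle poles, read 7.22 and 7.30 in the untreated arrays, 6.73 and 6.61 under IFN gamma/LPS, 7.45 and 7.21 under IL4/IL13 and 6.73 and 6.78 under LPS/IL4/IL13. Its fall was smaller, at -0.59 ± 0.11 (SE, adjusted p = 0.000712), and again the groups with LPS lay below the others without overlap. Aurkb, the Aurora kinase of the chromosomal passenger complex, changed by -2.14, the transcription factor gene Foxm1 by -0.81 and the kinase gene Melk by -0.73.

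The spindle checkpoint, kinetochore and centromere genes were lower in all 6 cases. Bub1b, which encodes the checkpoint protein BubR1, read 7.89 and 8.01 in the untreated arrays, 5.67 and 5.55 under IFN gamma/LPS, 7.50 and 7.17 under IL4/IL13 and 5.95 and 5.87 under LPS/IL4/IL13, a change of -2.34 ± 0.12 (SE, adjusted p = 9.85e-09) under IFN gamma/LPS. Cdc20, the activator of the anaphase-promoting complex, read 6.71 and 6.76 in the untreated arrays, 5.67 and 5.94 under IFN gamma/LPS, 6.52 and 6.51 under IL4/IL13 and 5.85 and 5.85 under LPS/IL4/IL13, with -0.93 ± 0.11 (SE, adjusted p = 1.88e-05). For both genes the untreated arrays were highest and the groups with LPS lowest. Bub1, the checkpoint kinase, changed by -1.98. Cenpa, the histone H3 variant that marks the centromere, read 9.13 and 9.20 in the untreated arrays, 6.66 and 6.66 under IFN gamma/LPS, 8.38 and 8.46 under IL4/IL13 and 7.0 and 6.97 under LPS/IL4/IL13. The arrays of a group agreed closely for Cenpa, and IFN gamma/LPS lay 5.68-fold below untreated, at -2.51 ± 0.09 (SE, adjusted p = 3.99e-10). Cenpe, a kinetochore motor, read 6.90 and 7.16 in the untreated arrays, 6.41 and 6.67 under IFN gamma/LPS, 6.47 and 6.51 under IL4/IL13 and 6.24 and 6.00 under LPS/IL4/IL13. Its fall of -0.49 ± 0.13 (SE, adjusted p = 0.00848) was among the smallest and was lost without untreated replicate 2 (adjusted p = 0.0952) or IFN gamma/LPS replicate 1 (adjusted p = 0.0784), and under quantile normalization (adjusted p = 0.112). Cenpf, another large kinetochore protein, changed by -1.08.

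Spindle motors and microtubule-binding proteins fell in 6 of 7 cases, each of the 6 by at least 2-fold. Kif23, a motor of the central spindle, read 8.45 and 8.54 in the untreated arrays, 6.02 and 5.91 under IFN gamma/LPS, 8.76 and 8.49 under IL4/IL13 and 6.49 and 6.45 under LPS/IL4/IL13. Untreated and IL4/IL13 arrays overlapped, and the change under IFN gamma/LPS was -2.53 ± 0.11 (SE, adjusted p = 2.03e-09). Kif2c, which takes microtubules apart at kinetochores, read 6.68 and 6.73 in the untreated arrays, 5.50 and 5.48 under IFN gamma/LPS, 6.09 and 6.19 under IL4/IL13 and 5.58 and 5.42 under LPS/IL4/IL13, with a change of -1.22 ± 0.11 (SE, adjusted p = 1.04e-06). The bipolar-spindle motor gene Kif11 changed by -2.38, the central-spindle motor gene Kif20a by -2.23, the microtubule bundler gene Prc1 by -1.99 and the spindle protein gene Nusap1 by -1.29. Tpx2, which activates Aurora A on spindle microtubules, went the other way and read 7.07 and 6.69 in the untreated arrays, 8.62 and 8.77 under IFN gamma/LPS, 6.29 and 6.46 under IL4/IL13 and 8.63 and 8.40 under LPS/IL4/IL13. Its 4 arrays with LPS lay above all arrays without it, and the rise under IFN gamma/LPS was 1.82 ± 0.14 (SE, adjusted p = 2.61e-07), 3.52-fold, called whichever array was left out. Aurka, the gene of the kinase that Tpx2 activates, fell in the same arrays. The files give Tpx2 a single probe set with that symbol alone, so no second probe set was there to compare.

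Of the genes of chromosome-bound proteins, Top2a, the topoisomerase that untangles sister DNA, read 7.83 and 8.13 in the untreated arrays, 6.28 and 6.11 under IFN gamma/LPS, 7.75 and 7.58 under IL4/IL13 and 6.65 and 6.46 under LPS/IL4/IL13, a change of -1.79 ± 0.13 (SE, adjusted p = 1.7e-07). All 4 arrays with LPS lay below the others for Top2a, but a second, dimmer Top2a probe set was not called, at -0.115 ± 0.176 (SE, adjusted p = 0.64). Mki67, the coat protein of mitotic chromosomes widely used as a proliferation marker, read 9.14 and 9.45 in the untreated arrays, 9.11 and 9.26 under IFN gamma/LPS, 9.01 and 8.98 under IL4/IL13 and 9.01 and 8.59 under LPS/IL4/IL13. The untreated and IFN gamma/LPS arrays of Mki67 overlapped and its change was -0.11 ± 0.14 (SE, adjusted p = 0.521), so it was the only mitosis gene not called under IFN gamma/LPS. Birc5, survivin of the chromosomal passenger complex, changed by -0.85. For cytokinesis, Anln, the anillin scaffold of the contractile ring, read 7.78 and 7.75 in the untreated arrays, 5.15 and 5.10 under IFN gamma/LPS, 7.55 and 7.34 under IL4/IL13 and 5.63 and 5.19 under LPS/IL4/IL13. The IFN gamma/LPS arrays of Anln lay 6.23-fold below untreated, at -2.64 ± 0.14 (SE, adjusted p = 1.04e-08). Ect2, which activates RhoA at the division plane, read 7.96 and 8.09 in the untreated arrays, 6.04 and 6.15 under IFN gamma/LPS, 7.85 and 7.68 under IL4/IL13 and 6.53 and 6.44 under LPS/IL4/IL13, with a change of -1.93 ± 0.11 (SE, adjusted p = 1.57e-08).

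**Figure D3:**
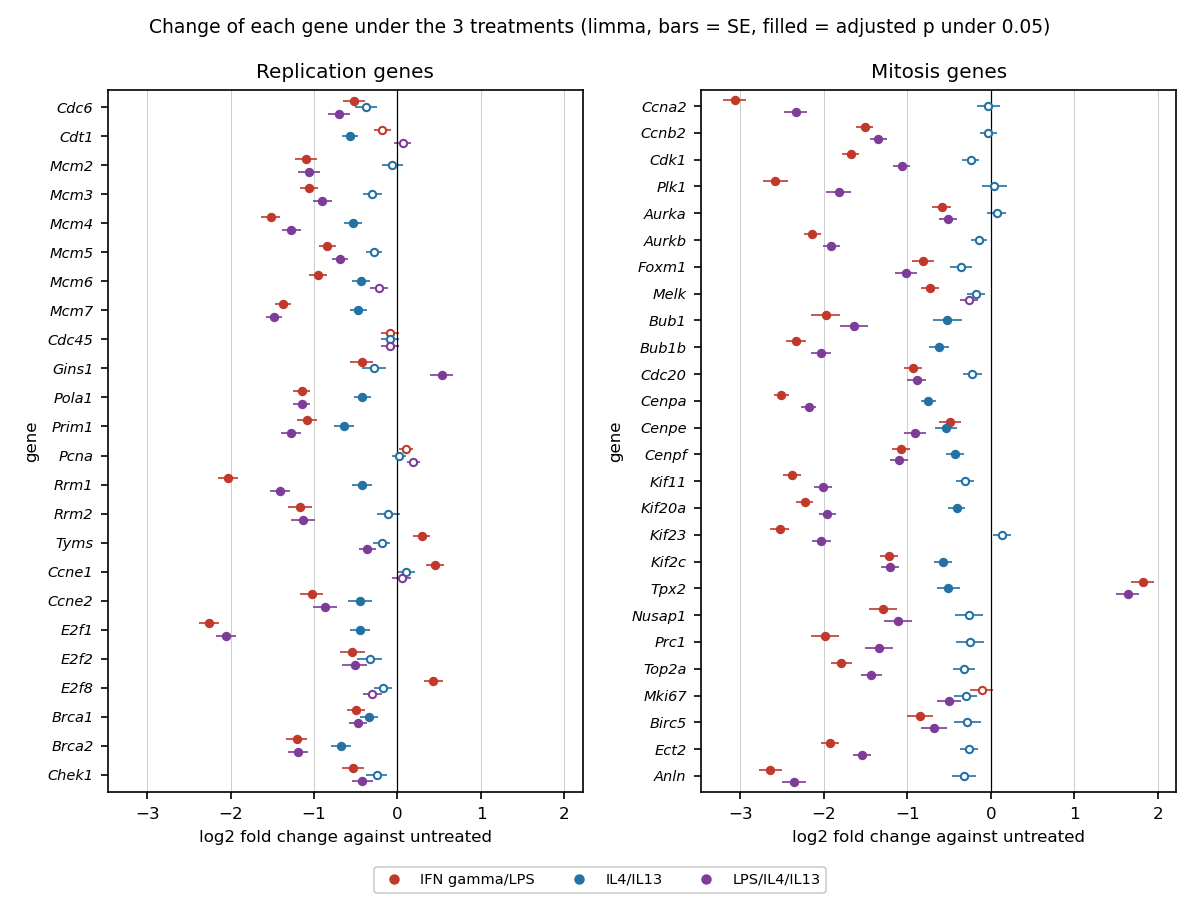
Log2 fold change against untreated (x axis, points, with bars of 1 SE) for each replication gene (left) and mitosis gene (right) under IFN gamma/LPS (red), IL4/IL13 (blue) and LPS/IL4/IL13 (purple). Filled points passed an adjusted p under 0.05; blue points lie between -0.75 and 0.13, while red points reach -3.07 and Tpx2 stands at 1.82.

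LPS/IL4/IL13, compared with the same untreated arrays, gave 41 genes lower and 2 higher of 50, while 25.4% of all named genes were called lower and 20.3% higher. Replication genes had 17 of 24 lower and 1 higher (median log2 fold change -0.69) and mitosis genes 24 of 26 lower and 1 higher (median -1.34), beside a median of 0.09 over all named genes. Over all named genes 45.6% were called in either direction, 8.72% lower by at least 2-fold and 5.18% higher by at least 2-fold. Of named genes above the median signal 43.1% were called lower. Falls of at least 2-fold numbered 9 in replication and 19 in mitosis genes. Anln changed most among the falls, at -2.36 ± 0.14 (SE, adjusted p = 3.71e-08), followed by Ccna2 at -2.34, Cenpa at -2.18 and E2f1 at -2.05. The genes called higher were Tpx2, at 1.64 ± 0.14 (SE, adjusted p = 8.33e-07), and Gins1, at 0.53 ± 0.14 (SE, adjusted p = 0.00914). Gins1 read 5.18 and 5.31 in the untreated arrays, 4.85 and 4.79 under IFN gamma/LPS, 5.01 and 4.92 under IL4/IL13 and 5.99 and 5.56 under LPS/IL4/IL13, so that its LPS/IL4/IL13 arrays were highest but also the farthest apart of any group. Its rise was lost without LPS/IL4/IL13 replicate 1 (0.32, adjusted p = 0.0988) or untreated replicate 1 (0.47, adjusted p = 0.0791). Genes not called here were Cdt1, Mcm6, Cdc45, Pcna, Ccne1 and E2f8 of replication, between -0.30 for E2f8 and 0.19 for Pcna, and Melk of mitosis at -0.26 ± 0.11 (SE, adjusted p = 0.0717). Falls of Tyms, E2f2, Chek1 and Mki67 passed with all arrays, at -0.36, -0.51, -0.42 and -0.50, but not without untreated replicate 2, with adjusted p of 0.118, 0.0556, 0.105 and 0.135, or without LPS/IL4/IL13 replicate 2, with adjusted p of 0.0614, 0.0588, 0.117 and 0.0911. E2f2 was also lost without untreated replicate 1 (adjusted p = 0.105), and quantile normalization left Tyms at -0.17 (adjusted p = 0.224) and Aurka at -0.24 (adjusted p = 0.107).

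IL4/IL13 without LPS shifted the genes far less. Of the 50, 19 were called lower and 0 higher, with 12.3% of all named genes called lower and 7.83% higher, and 21.8% lower among named genes above the median signal. The median log2 fold change was -0.33 for replication genes, with 11 of 24 lower, and -0.29 for mitosis genes, with 8 of 26 lower, beside 0.07 over all named genes. Over all named genes 20.2% were called in either direction, 1.38% lower by at least 2-fold and 1.07% higher by at least 2-fold. No fall reached 2-fold. Cenpa fell the most, at -0.75 ± 0.09 (SE, adjusted p = 0.000114), followed by Brca2 at -0.68 ± 0.12 (SE, adjusted p = 0.0019), Prim1 at -0.64 ± 0.12 (SE, adjusted p = 0.00247), Bub1b at -0.62 ± 0.12 (SE, adjusted p = 0.00392), Cdt1 at -0.57 and Kif2c at -0.57. Cdt1 read 7.77 and 7.87 in the untreated arrays, 7.66 and 7.62 under IFN gamma/LPS, 7.18 and 7.33 under IL4/IL13 and 7.86 and 7.90 under LPS/IL4/IL13, and its IL4/IL13 arrays were the lowest of the 8. Prim1 read 5.77 and 5.80 in the untreated arrays, 4.58 and 4.81 under IFN gamma/LPS, 5.10 and 5.19 under IL4/IL13 and 4.55 and 4.47 under LPS/IL4/IL13, with the IL4/IL13 arrays between the untreated arrays and those with LPS. Also called lower were Mcm4, Mcm6, Mcm7, Pola1, Rrm1, Ccne2, E2f1 and Brca1 of replication and Bub1, Cenpe, Cenpf, Kif20a and Tpx2 of mitosis, between -0.54 for Cenpe and -0.34 for Brca1. The mitotic cyclin and kinase genes were not called: Ccna2 stood at -0.03 ± 0.14 (SE, adjusted p = 0.916), Ccnb2 at -0.03, Cdk1 at -0.24, Plk1 at 0.04 and Aurka at 0.07.

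The count under IL4/IL13 rested on all 4 arrays of that comparison. It dropped to 6 without IL4/IL13 replicate 2, to 8 without untreated replicate 2 and to 11 with p-values adjusted over all probe sets, and it was 13 without IL4/IL13 replicate 1 and 13 without untreated replicate 1. The genes that passed in all 4 of the fits that left out 1 array numbered 6: Cdt1, Mcm7, Prim1, Brca2, Cenpa and Kif2c. After each array was centred on its median, 24 of the 50 were lower and 0 higher, and the calls over all named genes went from 1561 higher and 2459 lower to 1140 higher and 2850 lower. A fit to only the 4 arrays compared added 9 calls to those of the main fit and lost 0. Shares of all named genes called are not given for that fit or for the fits that left out 1 array. Those counts therefore show only which calls held.

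LPS/IL4/IL13 and IFN gamma/LPS share LPS and differ by both IFN gamma and IL4/IL13, so the part of each cytokine cannot be told apart. Between them 12 genes were called higher under LPS/IL4/IL13 and 4 lower, with 12.1% of all named genes called higher and 7.62% lower. Mitosis genes had 9 of 26 higher and 1 lower (median log2 difference 0.28), and replication genes 3 of 24 higher and 3 lower (median 0.04), beside 0.00 over all named genes. Over all named genes 19.7% were called in either direction, 1.64% lower by at least 2-fold and 1.68% higher by at least 2-fold. No difference reached 2-fold. Gins1 was higher by 0.96 ± 0.14 (SE, adjusted p = 0.000404), Mcm6 by 0.73 ± 0.11 (SE, adjusted p = 0.000351) and Rrm1 by 0.62 ± 0.12 (SE, adjusted p = 0.00243). Mcm6 read 8.47 and 8.63 in the untreated arrays, 7.54 and 7.66 under IFN gamma/LPS, 8.21 and 8.01 under IL4/IL13 and 8.38 and 8.28 under LPS/IL4/IL13, so its LPS/IL4/IL13 arrays lay near the untreated arrays and its IFN gamma/LPS arrays below all others. Of mitosis genes, Plk1 was higher by 0.77 ± 0.15 (SE, adjusted p = 0.00302), Ccna2 by 0.73 ± 0.14 (SE, adjusted p = 0.00304), Cdk1 by 0.61, Kif23 by 0.51 and Melk by 0.47. The lower genes were E2f8 (-0.73 ± 0.11), Tyms (-0.65 ± 0.10), Cenpe (-0.42 ± 0.13) and Ccne1 (-0.40 ± 0.11).

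Not all of these differences held when an array was left out. Prc1 (0.65 ± 0.17) read 4.96 and 4.89 under IFN gamma/LPS and 5.83 and 5.31 under LPS/IL4/IL13. Its difference dropped to 0.39 without LPS/IL4/IL13 replicate 1 (adjusted p = 0.14) and was also lost without IFN gamma/LPS replicate 2 (adjusted p = 0.0621). Kif11 (0.37), Cenpa (0.33) and Ccne1 were each lost without IFN gamma/LPS replicate 1, IFN gamma/LPS replicate 2 or LPS/IL4/IL13 replicate 1. Without the last of these the adjusted p was 0.209 for Kif11, 0.0648 for Cenpa and 0.0929 for Ccne1. Ect2 (0.39) was lost without IFN gamma/LPS replicate 1 (adjusted p = 0.152) or LPS/IL4/IL13 replicate 1 (adjusted p = 0.0939). Cenpe was lost without LPS/IL4/IL13 replicate 2 (adjusted p = 0.217) or IFN gamma/LPS replicate 2 (adjusted p = 0.27). Of the 16 calls 10 held in every such fit: Gins1, Mcm6, Rrm1, Tyms, E2f8, Ccna2, Cdk1, Plk1, Melk and Kif23. A fit to the 4 arrays of these groups alone called 10 genes, 5 of them mitosis genes that were higher.

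**Figure D4:**
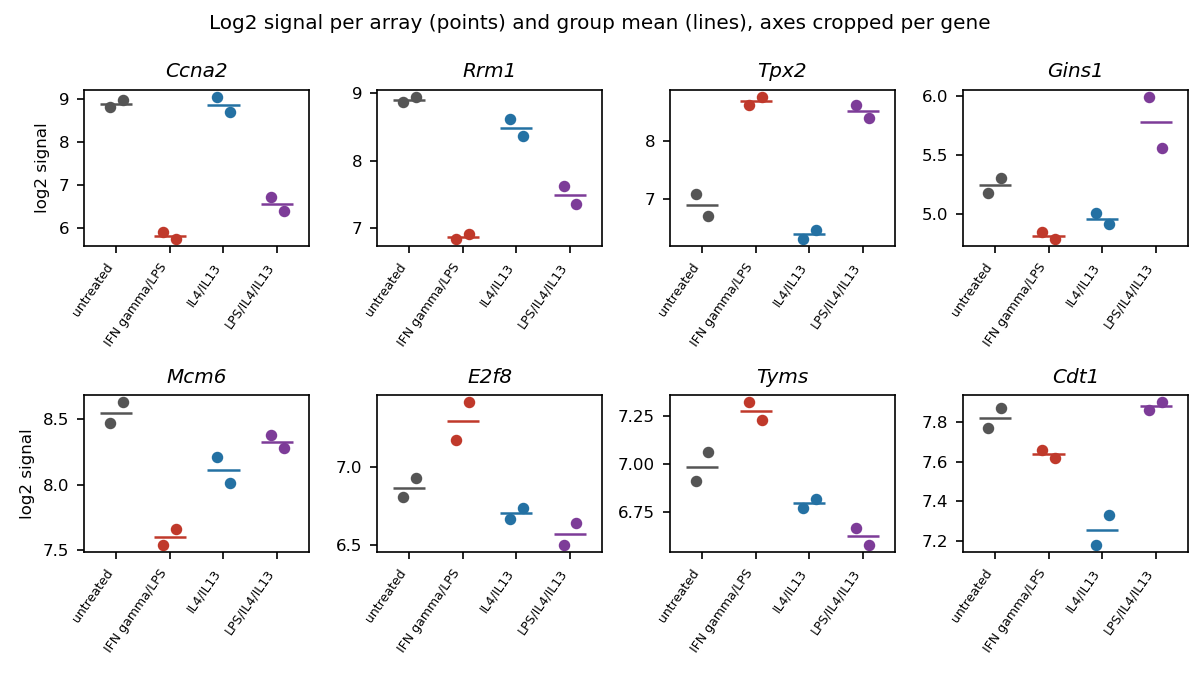
Log2 signal per array (points, y axis, a separate range for each gene) and group mean (lines) in the 4 groups for Ccna2, Rrm1, Tpx2, Gins1, Mcm6, E2f8, Tyms and Cdt1. Ccna2 and Rrm1 were lowest under IFN gamma/LPS, Tpx2 was high in both groups with LPS, E2f8 and Tyms were highest under IFN gamma/LPS, and Cdt1 was lowest under IL4/IL13.

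LPS/IL4/IL13 and IL4/IL13 differ by LPS alone. With LPS 34 genes were lower and 3 higher of 50, while 22.6% of all named genes were called lower and 14.1% higher. Mitosis genes had 22 of 26 lower (median -1.10) and replication genes 12 of 24 (median -0.37), beside -0.02 over all named genes. Over all named genes 36.7% were called in either direction, 5.83% lower by at least 2-fold and 5.35% higher by at least 2-fold. The difference was -2.31 ± 0.14 (SE, adjusted p = 6.55e-08) for Ccna2 and -1.86 ± 0.15 (SE, adjusted p = 7.45e-07) for Plk1, and the 3 higher genes were Tpx2 (2.14 ± 0.14), Gins1 (0.81 ± 0.14) and Cdt1 (0.63 ± 0.10). Between the groups that share no agent, 36 genes were lower and 5 higher under IFN gamma/LPS than under IL4/IL13, with 26.1% of all named genes called lower and 15.5% higher. There the medians were -0.48 for replication and -1.47 for mitosis genes, beside -0.01 over all named genes, and quantile normalization moved the replication median to -0.29. Over all named genes 41.6% were called in either direction, 8.86% lower by at least 2-fold and 6.32% higher by at least 2-fold. The 5 higher genes were Tpx2 at 2.32, E2f8 at 0.60, Tyms at 0.48, Cdt1 at 0.39 and Ccne1 at 0.35. The call of Cdt1 was lost without IL4/IL13 replicate 1 (adjusted p = 0.0685), and that of Ccne1 without any 1 of the 4 arrays, with adjusted p from 0.0547 to 0.0978.

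Over the 4 groups, the untreated mean was the highest in 40 of the 50 genes, and the IFN gamma/LPS mean was the lowest in 37, against 9 for LPS/IL4/IL13, 2 for IL4/IL13 and 2 for untreated. Among all 19938 named genes the untreated mean was the highest in 24.1% and the IFN gamma/LPS mean the lowest in 26.7%. The LPS/IL4/IL13 mean was the lowest in 15.3% of all named genes, the IL4/IL13 mean in 14.3% and the untreated mean in 43.7%. In mitosis genes the untreated group was never the lowest. Array by array, the median difference of the mitosis genes from the untreated mean was -1.72 and -1.75 under IFN gamma/LPS, -1.25 and -1.43 under LPS/IL4/IL13 and -0.22 and -0.35 under IL4/IL13. For the replication genes it was -0.94 and -0.85, -0.70 and -0.69, and -0.32 and -0.33 in the same order. The medians of the classes lay apart in both groups with LPS and close together under IL4/IL13.

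Further genes of the same processes, outside the 51, were counted from separate lists. As background, 28.4% of all named genes were called lower and 23.6% higher under IFN gamma/LPS (median 0.11). These shares were 25.4% and 20.3% under LPS/IL4/IL13 (median 0.09) and 12.3% and 7.83% under IL4/IL13 (median 0.07). Of 42 other measured replication genes, 27 were lower and 5 higher under IFN gamma/LPS (median -0.56), 28 lower and 3 higher under LPS/IL4/IL13 (median -0.54) and 16 lower and 0 higher under IL4/IL13 (median -0.19). The largest falls under IFN gamma/LPS were those of Pole2, a subunit of polymerase epsilon (-2.26 ± 0.14), the maintenance DNA methyltransferase gene Dnmt1 (-2.24 ± 0.10), the histone chaperone gene Asf1b (-2.09 ± 0.09) and the clamp loader gene Rfc1 (-2.08 ± 0.13). The 5 that rose, named after their values were seen, were the clamp loader gene Rfc3 at 0.99, the polymerase delta subunit gene Pold3 at 0.81, Orc4 of the origin complex at 0.59, the fork protein gene Timeless at 0.53 and the polymerase alpha subunit gene Pola2 at 0.47. Rfc3 also had the largest fall of these genes under IL4/IL13, at -0.77 ± 0.13 (SE, adjusted p = 0.000997).

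The background for the mitosis list was the same, with 28.4% of all named genes lower and 23.6% higher under IFN gamma/LPS (median 0.11). It was 25.4% and 20.3% under LPS/IL4/IL13 (median 0.09) and 12.3% and 7.83% under IL4/IL13 (median 0.07). Of 50 other measured mitosis genes, 43 were lower and 2 higher under IFN gamma/LPS (median -1.06), 43 lower and 2 higher under LPS/IL4/IL13 (median -0.83) and 13 lower and 0 higher under IL4/IL13 (median -0.23). Falls under IFN gamma/LPS were led by Sgo2a, a protector of centromere cohesion (-2.23 ± 0.15), and the spindle protein gene Hmmr (-2.10 ± 0.13). In each of these groups with LPS, the 2 genes that rose were Pttg1 and Kif4, named after their values were seen. Pttg1, the securin that holds separase inactive, read 8.71 and 8.70 in the untreated arrays, 9.71 and 9.78 under IFN gamma/LPS, 8.50 and 8.30 under IL4/IL13 and 9.41 and 9.51 under LPS/IL4/IL13, and rose by 1.04 ± 0.09 (SE, adjusted p = 1.14e-06) under IFN gamma/LPS. Kif4, a chromosome-bound motor, read 5.84 and 5.81 in the untreated arrays, 6.35 and 6.55 under IFN gamma/LPS, 5.64 and 5.63 under IL4/IL13 and 8.32 and 7.81 under LPS/IL4/IL13. Its LPS/IL4/IL13 arrays stood far above the other 6, at 2.24 ± 0.15 (SE, adjusted p = 1e-07) against untreated and 1.62 ± 0.15 (SE, adjusted p = 8.4e-06) against IFN gamma/LPS.

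Genes upstream of the cycle did not move as a block. Of 9 measured G1 cyclin and kinase genes, 6 were lower and 3 higher under IFN gamma/LPS, 5 lower and 4 higher under LPS/IL4/IL13 and 4 lower and 1 higher under IL4/IL13. Calls were mixed over all named genes too, with 28.4% lower and 23.6% higher under IFN gamma/LPS. These shares were 25.4% and 20.3% under LPS/IL4/IL13 and 12.3% and 7.83% under IL4/IL13. Ccnd2, cyclin D2, which opens G1 with Cdk4 or Cdk6, read 7.56 and 7.40 in the untreated arrays, 12.32 and 12.34 under IFN gamma/LPS, 7.27 and 7.40 under IL4/IL13 and 11.27 and 11.18 under LPS/IL4/IL13. Its arrays with LPS lay above all others, with a rise of 4.85 ± 0.09 (SE, adjusted p = 1.87e-12) under IFN gamma/LPS. Ccnd1 (0.54) and Cdk6 (1.00) also rose, whereas Ccnd3 (-0.48), Cdk4 (-1.83), Cdk2 (-1.80), the phosphatase gene Cdc25a (-0.96) and the ubiquitin ligase gene Skp2 (-1.27) fell. Myc, the growth-promoting transcription factor gene, read 7.42 and 7.52 in the untreated arrays, 6.75 and 6.87 under IFN gamma/LPS, 8.41 and 8.68 under IL4/IL13 and 9.87 and 10.04 under LPS/IL4/IL13. It fell under IFN gamma/LPS, at -0.66 ± 0.11 (SE, adjusted p = 0.000357), and rose under IL4/IL13, at 1.08 ± 0.11 (SE, adjusted p = 3.18e-05), and under LPS/IL4/IL13, at 2.49 ± 0.11 (SE, adjusted p = 3.4e-09).

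Of 12 measured genes of CDK inhibitors and other growth-restraining proteins, 5 were lower and 6 higher under IFN gamma/LPS, 4 lower and 2 higher under IL4/IL13 and 6 lower and 4 higher under LPS/IL4/IL13. Shares of all named genes called lower and higher were 28.4% and 23.6%, 12.3% and 7.83%, and 25.4% and 20.3% in the same order. Cdkn2b, which encodes p15, rose by 0.84 ± 0.10 (SE, adjusted p = 1.52e-05) under IFN gamma/LPS and Cdkn2d, which encodes p19-INK4d, by 0.82 ± 0.10 (SE, adjusted p = 1.49e-05), reaching 1.55 under LPS/IL4/IL13. Btg2 (0.55), Ccng2 (0.53), Cdkn2a (0.42) and Btg1 (0.35) also rose under IFN gamma/LPS. Cdkn1b, which encodes p27, fell, at -1.14 under IFN gamma/LPS and -1.77 under LPS/IL4/IL13, as did Cdkn2c, which encodes p18, at -1.83 and -1.57. Cdkn3 (-1.12), Ccng1 (-1.01) and Tob1 (-0.92) fell under IFN gamma/LPS and Cdkn1c was not called (-0.03). Cdkn1a, which encodes p21, was not analysed here.

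Of 15 genes of the RB, DREAM and other E2F factors, 7 were lower and 5 higher under IFN gamma/LPS, 5 lower and 1 higher under IL4/IL13 and 8 lower and 3 higher under LPS/IL4/IL13. Shares of all named genes called lower and higher were 28.4% and 23.6%, 12.3% and 7.83%, and 25.4% and 20.3% in the same order. The pocket protein genes, which encode repressors of E2F targets, went apart. Rbl1, which encodes p107, read 8.14 and 8.15 in the untreated arrays, 10.65 and 10.80 under IFN gamma/LPS, 8.14 and 7.82 under IL4/IL13 and 10.41 and 10.23 under LPS/IL4/IL13, a rise of 2.58 ± 0.11 (SE, adjusted p = 1.83e-09) under IFN gamma/LPS. Rbl2, which encodes p130, read 9.48 and 9.39 in the untreated arrays, 6.33 and 6.57 under IFN gamma/LPS, 9.22 and 8.96 under IL4/IL13 and 6.64 and 6.25 under LPS/IL4/IL13, a change of -2.99 ± 0.14 (SE, adjusted p = 3.84e-09). For these genes the 4 arrays with LPS did not overlap the 4 without it, above them for Rbl1 and below them for Rbl2. Rb1 changed by -2.07, the E2F partner gene Tfdp2 by -2.59 and the repressor gene E2f6 by -2.51, while E2f3, E2f5, E2f4 and the MuvB gene Lin54 rose by 0.89, 0.70, 0.41 and 0.37. The MuvB genes Lin9 (-0.86) and Lin52 (-0.52) and Tfdp1 (-0.43) fell, and Lin37 (-0.21), E2f7 (-0.19) and Mybl2, which encodes B-Myb (-0.10), were not called.

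**Figure D5:**
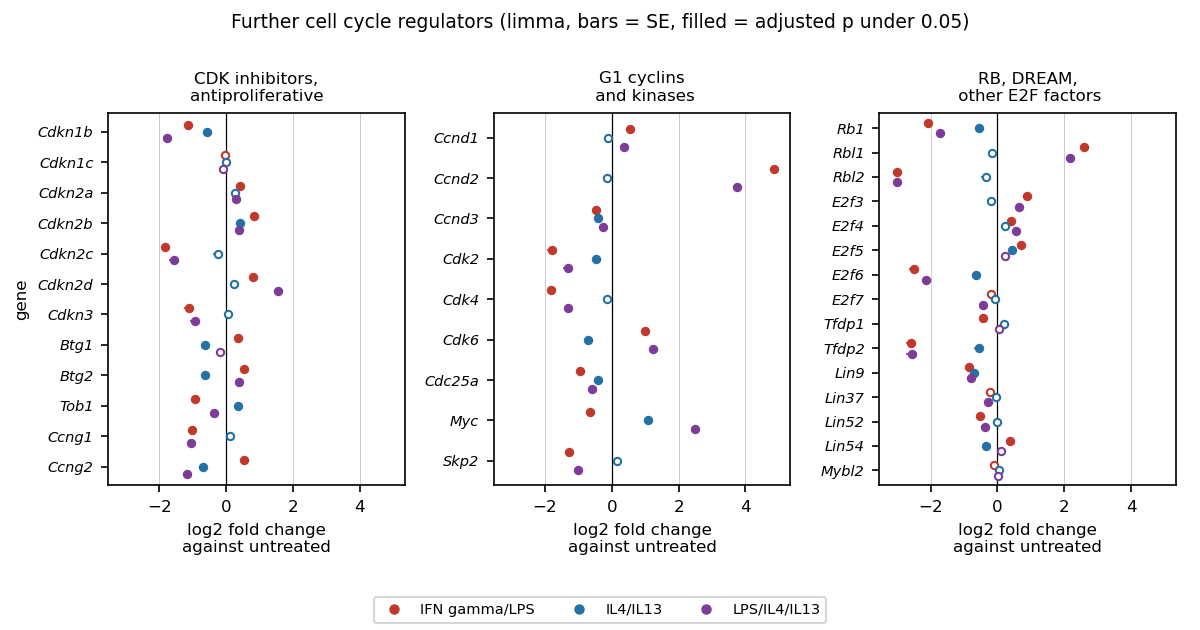
Log2 fold change against untreated (x axis, points, with bars of 1 SE) of CDK inhibitor and antiproliferative genes (left), G1 cyclin and kinase genes (middle) and RB, DREAM and other E2F genes (right) under IFN gamma/LPS (red), IL4/IL13 (blue) and LPS/IL4/IL13 (purple), filled where the adjusted p was under 0.05. Ccnd2 reaches 4.85, Rbl1 lies at 2.58 and Rbl2 at -2.99 under IFN gamma/LPS.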

How the data were processed

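Total RNA with an integrity number above 9 from 8 BMDM samples was hybridised to Affymetrix MoGene 1.0 arrays, 1 sample per array, per the labels' protocols. The authors deposited 1 value per probe set and array; the deposited values run from 1.46 to 13.71 with array medians of 6.12 to 6.20, a log2 scale read from the values although the labels name a MAS5 signal. How background was corrected and arrays were normalized is not stated in the labels or files. The number of arrays limits the precision.

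Of 35556 probe sets 21789 carried 1 symbol in the platform annotation, 1621 several and 12146 none; those with 1 symbol gave 19938 named genes. limma 3.58.1 in R 4.3.3 fitted the 4 groups in 1 model (lmFit, contrasts.fit, eBayes with trend, 4 residual and 7.55 prior degrees of freedom), and p-values of each of 6 comparisons were Benjamini-Hochberg adjusted across these genes, with calls at 0.05. Fold changes are differences of log2 means, n = 2 arrays per group, and errors are the SE of the fit. The 3 comparisons with untreated share its arrays. The fit was run on simulated data with few changed genes, a setting unlike these data, so that run does not bear on the results here.

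Members, lists and motifs were chosen with earlier results of these data known, so lists get counts and medians and no test. Values per array were given, per role, for the genes with the largest and smallest change under IFN gamma/LPS, for genes called against most of their class, and for up to 6 genes called under IL4/IL13 or between the groups with LPS. Of the further lists, up to 4 called genes with the largest change were named, and any gene of the last 3. Same-numbered arrays were checked for pairing: their deviations from group means correlated between -0.358 and 0.217 over genes, and the labels do not pair them. Alternatives were quantile normalization, median centring, no dim genes (below the 40th percentile, 5.91), no variance trend, the 4 arrays compared only, a replicate block, means over probe sets, adjustment over all probe sets, a 2-fold rule and leaving out each array. In IFN gamma/LPS the median of all named genes stood 0.11 above untreated, and changes are given beside it.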

Additional observations from a re-analysis of the deposited data

How the results depend on the processing

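In this paragraph IFN is IFN gamma/LPS, IL4 is IL4/IL13 and LPS/IL4 is LPS/IL4/IL13, each against untreated unless stated, and counts are of the 50 genes. No call changed direction under any alternative run. A 2-fold rule left 30 called under IFN (11 replication genes lower, 1 gene higher), 0 under IL4, 9 replication genes lower and 1 gene higher under LPS/IL4, and 0 between LPS/IL4 and IFN. It left 19 between LPS/IL4 and IL4 (18 lower, of which 4 replication and 14 mitosis genes, and 1 higher) and 21 between IFN and IL4 (20 lower, of which 4 replication genes, and 1 higher). Adjustment over all probe sets gave 11 lower under IL4 (7 replication, 4 mitosis) and 2 lower between LPS/IL4 and IFN. Fits to only the 4 arrays compared gave 13 mitosis genes lower under IL4, and 10 called, 2 lower and 5 mitosis genes higher between LPS/IL4 and IFN. Leaving out dim genes kept 42 of the 50 genes and 17 replication genes, of which 11 were lower under IFN. The replication medians were then -0.95 under IFN, -0.42 between LPS/IL4 and IL4 and -0.56 between IFN and IL4. Means over probe sets gave mitosis medians of -1.59 under IFN and -0.97 between LPS/IL4 and IL4. Median centring gave replication medians of -0.38 under IL4, -0.30 between LPS/IL4 and IL4 and -0.42 between IFN and IL4. Quantile normalization gave replication medians of -0.63 under IFN, -0.26 between LPS/IL4 and IL4 and -0.29 between IFN and IL4, mitosis medians of -1.52, -1.21 and -0.98 under IFN, under LPS/IL4 and between LPS/IL4 and IL4, and 4 genes higher under LPS/IL4. The cause of these shifts was not tested.

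Leaving out each array in turn gave 41 to 43 called under IFN (1 to 4 higher), 6 to 13 under IL4 (4 to 9 replication, 2 to 6 mitosis), 39 to 42 under LPS/IL4 (1 to 3 higher), 11 to 17 between LPS/IL4 and IFN (2 to 4 lower, 5 to 11 mitosis genes higher), 35 to 37 between LPS/IL4 and IL4, and 36 to 41 between IFN and IL4 (3 to 4 higher). Replication medians ran from -0.94 to -0.83 under IFN, -0.36 to -0.28 under IL4, -0.77 to -0.61 under LPS/IL4, -0.39 to -0.31 between LPS/IL4 and IL4 and -0.53 to -0.43 between IFN and IL4. Mitosis medians ran from -0.36 to -0.20 under IL4, -1.43 to -1.23 under LPS/IL4, -1.19 to -0.92 between LPS/IL4 and IL4 and -1.54 to -1.38 between IFN and IL4. Under IFN the array whose loss left 1 gene higher was untreated replicate 1, and under IL4 the lowest count came without IL4/IL13 replicate 2.

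With the replicate number as a block, 46 genes were called under IFN, 16 under IL4 and 44 under LPS/IL4, and 14, 36 and 41 between LPS/IL4 and IFN, LPS/IL4 and IL4, and IFN and IL4. With 2 arrays per group, small changes can be missed, and with no detection calls used here no gene can be called off.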

Other observations

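Probe sets outside the comparisons were also fitted. A second probe set of Top2a changed by -0.115 ± 0.176 (SE, limma adjusted p = 0.64) under IFN gamma/LPS, unlike the brighter one reported above. Of 2 probe sets that carry both Top2a and Hibadh as symbols, 1 changed by -0.35 under IFN gamma/LPS (adjusted p = 0.062) and by -0.39 under LPS/IL4/IL13 (adjusted p = 0.0488), and the other by -0.275 (adjusted p = 0.264) and -0.375 (adjusted p = 0.153). A second probe set of Pcna changed by 0.10 under IFN gamma/LPS (adjusted p = 0.396) and by 0.18 under LPS/IL4/IL13 (adjusted p = 0.153), close to the values of the first.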
